A study of Mus musculus with 4 samples.

Results

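The cells described here are tumor leukocytes that carried RNA of the chemokines Cxcl9 and Cxcl10 together with Tgm2, the gene of a protein-crosslinking transglutaminase, and that lacked the defining RNA of several other myeloid types. They were picked from the deposited counts of unique molecular identifiers (UMIs, 1 per captured RNA molecule) by a fixed set of limits, so the values of the limiting genes are a description of the choice and not a result. A cell needed 300 to 5000 detected genes, no more than 6% mitochondrial UMIs, at least 1 UMI of Tgm2, at least 5 UMIs of Cxcl9 and Cxcl10 together, and at least 1 UMI of Lyz2, the myeloid lysozyme gene. It had to hold fewer than 2 UMIs of Nos2 and Inhba together, fewer than 10 UMIs of the complement genes C1qa, C1qb and C1qc together, and fewer than 2 UMIs of Cd209a. Fewer than 2 of the 5 genes Mrc1, Pf4, Ccl8, Retnla and Folr2 could be detected, and UMIs of Cd3e, Cd3d, Cd3g and Cd79a had to be absent. These limits were met by 973 of 23011 cells that passed the quality filter, and by 973 of the 9610 filtered cells with Lyz2 RNA and without RNA of Cd3 or Cd79a. They are called Cxcl9 Cxcl10 Tgm2 cells below. The working name of the set calls them derived from monocytes, and counts of RNA at 1 time do not show where a cell came from.

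All mice carried subcutaneous tumors grown from the line KPC, derived from pancreatic tumors of genetically engineered mice that carry Pdx1-Cre. According to the methods of the study, the hosts were male C57BL/6NHsd mice and the tumors of a group were pooled before live Cd45-positive cells were sorted and profiled by droplet single-cell RNA sequencing. The 4 groups had 1 library each. The untreated mice received no agonist. The STING agonist group received ADU-S100, a synthetic cyclic dinucleotide that activates the DNA-sensing adaptor STING, by injection into the tumor. The LTbR agonist group was given an agonistic antibody to LTbR (lymphotoxin-β receptor) into the peritoneum, and the last group, labelled STING and LTbR agonist and called the combination below, received both. Single cells were profiled in repeat experiments of the study, and the labels do not tie these libraries to one of them. Pooling leaves no value per mouse and no replicate library, so no test was possible and no p-value is given. Intervals of levels and shares are exact 95% intervals, those of share ratios are 95% intervals on the log scale, and those of log2 ratios join opposite bounds of 2 exact intervals and are wider than 95%. All of them cover counting error only and say nothing of the spread between mice. Those taken on summed UMIs also leave out the spread between cells. A set of 4 values is always given in the order untreated, STING agonist, LTbR agonist and combination.

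Cxcl9 and Cxcl10 are ligands of the receptor Cxcr3, which activated T cells and natural killer cells carry, and both are induced by interferons. Cxcl9 depends mostly on interferon-γ, which acts through GAS elements, whereas Cxcl10 also answers to type I interferons and to Irf factors through ISRE elements. Gbp2 belongs to the guanylate-binding proteins and Irgm2 to the immunity-related GTPases, families of interferon-induced enzymes that attack vacuoles holding microbes. Plac8 is high in classical monocytes, the blood cells with Ly6c2 and Ccr2 that enter tumors and mature into macrophages.

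The promoters of 4 of these interferon-induced genes are shown because the levels of the genes are followed through the whole account. Sequences are from RefSeq on build GRCm38.p6, run 5′ to 3′ on the strand of the gene, and cover 250 bases before to 50 after the start site. Capitals mark the letters TTCNNNGAA, the GAS form, which reads the same on both strands and was counted once, and GAAANNGAA, a core of the ISRE, searched on both strands.
Cxcl9, chr5:92328030-92328329, minus strand: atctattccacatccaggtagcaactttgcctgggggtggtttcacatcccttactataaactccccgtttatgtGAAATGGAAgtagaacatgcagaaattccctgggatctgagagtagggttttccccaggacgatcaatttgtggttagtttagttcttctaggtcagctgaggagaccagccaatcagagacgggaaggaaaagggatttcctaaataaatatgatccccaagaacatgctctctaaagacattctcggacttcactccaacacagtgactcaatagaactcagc
Cxcl10, chr5:92348840-92349139, minus strand: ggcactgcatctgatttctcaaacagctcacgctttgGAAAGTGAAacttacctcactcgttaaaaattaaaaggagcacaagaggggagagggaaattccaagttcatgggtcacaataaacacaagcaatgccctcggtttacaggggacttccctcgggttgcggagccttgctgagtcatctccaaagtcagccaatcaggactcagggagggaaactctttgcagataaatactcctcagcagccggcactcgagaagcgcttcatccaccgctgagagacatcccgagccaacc
Gbp2, chr3:142620413-142620712, plus strand: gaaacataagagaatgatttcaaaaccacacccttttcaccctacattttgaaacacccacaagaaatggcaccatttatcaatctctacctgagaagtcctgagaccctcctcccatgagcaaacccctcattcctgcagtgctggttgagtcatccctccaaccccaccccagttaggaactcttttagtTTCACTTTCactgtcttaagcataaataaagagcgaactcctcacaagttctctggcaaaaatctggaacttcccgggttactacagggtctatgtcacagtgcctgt
Irgm2, chr11:58214727-58215026, plus strand: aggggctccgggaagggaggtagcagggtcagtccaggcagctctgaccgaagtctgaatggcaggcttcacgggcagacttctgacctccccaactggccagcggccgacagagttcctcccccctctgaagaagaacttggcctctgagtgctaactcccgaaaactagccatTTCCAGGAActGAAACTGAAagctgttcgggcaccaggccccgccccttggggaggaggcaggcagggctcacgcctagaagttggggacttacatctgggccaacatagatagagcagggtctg
The ISRE core began at -175 from the start site in Cxcl9, at -213 in Cxcl10, at -58 in Gbp2 and at -64 in Irgm2, where a GAS form stood just upstream at -75. No GAS form stood in the stretches shown for Cxcl9, Cxcl10 and Gbp2. Plac8 had neither the GAS form nor the ISRE core in 2 promoters. Promoters were found for 4 of the 5 genes that name or mark the set, and Tgm2 was not matched. Of 32851 promoters in all, 8.3% held the GAS form and 8.56% the ISRE core, against 53.8% and 84.6% of the 13 promoters matched to 12 of 18 interferon-γ-induced GTPase genes. A match is a run of letters and not a bound site.

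The libraries held 60770280, 32529174, 56877525 and 42710099 UMIs in total, and 90.9 to 94.8% of their barcodes passed the filter. The Cxcl9 Cxcl10 Tgm2 cells held a median of 8966.5, 10043, 8607.0 and 9420.0 UMIs, and mitochondrial UMIs made up 0.758 to 0.994% of their RNA. T cells, defined by at least 2 UMIs of the Cd3 genes, served as a measure of free RNA because they should lack most of these genes, and they held medians of 5810, 5839, 5104 and 5606 UMIs. The 3 positive limits on Tgm2, chemokines and Lyz2 together were met by 3.27, 1.97, 4.51 and 2.21% of those T cells. Of all barcode sequences, 284 occurred in at least 2 libraries, which involved 28 of the 973 cells, and 1 sequence gave a chosen cell in 2 libraries.

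Gbp2 and Plac8, the markers of the set that did not choose its members, were both found in most of them. Gbp2 stood at 1112 (1075 to 1151), 1560 (1500 to 1622), 714 (682 to 748) and 979 (939 to 1021) CPM, its UMIs scaled to a set total of 1000000, against 147, 134, 110 and 89.1 CPM in T cells. A Gbp2 UMI was present in 93.9, 95.7, 87.3 and 91.5% of the members and in 28.8, 31.0, 27.6 and 24.1% of T cells. After each cell was thinned to 3000 UMIs these shares were 82.4, 89.5, 71.7 and 76.3% against 19.8, 21.5, 19.2 and 15%. Thinning left out 7, 9, 17 and 8 members and 265, 128, 362 and 271 T cells that were shallower. Plac8 stood at 4416, 3653, 3573 and 3533 CPM with a UMI in 93.8 to 98.9% of members, against 481 to 688 CPM in T cells. Both markers were thus above the T cell level in all 4 libraries. Plac8 was not particular to the members. Ly6c2 monocytes and Nos2 Inhba cells, sets defined below, held 3673, 3165, 3210 and 3524 CPM and 2066 to 2810 CPM of it.

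Monocyte RNA was common among the members. Ly6c2, a surface protein of classical monocytes and of some T cells, was found in 84.7, 76.4, 82.9 and 81.6% of them and in 52.4, 50.3, 45.4 and 44.9% of T cells. After thinning the shares were 74.3, 63.8, 69.8 and 78.1% against 48.0, 46.8, 42.2 and 39.2%. Vcan, the matrix proteoglycan versican, stood at 105, 121, 140 and 61.4 CPM. Macrophage RNA was present as well, with Apoe found in 72.3, 74.5, 49.5 and 47.5% of members and in 7.64 to 15% of T cells. After thinning these shares were 61.6, 58.6, 37.6 and 34.9% of members and 5.05 to 11.4% of T cells. Ms4a7, another macrophage gene, stood at 33.9, 30.8, 16.7 and 10.7 CPM and was thus lower in the LTbR agonist and combination libraries than in the untreated library.

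The 93 members with 5 or 6 chemokine UMIs held 644 CPM of Gbp2 and 3301 CPM of Plac8. The 141 cells that met every other limit with 3 or 4 chemokine UMIs held 551 and 3163 CPM, and the 1479 such cells with 0 chemokine UMIs held 311 and 2559 CPM. The 72 members with 1 Tgm2 UMI held 407 CPM of Gbp2, and the 106 cells that lacked only Tgm2 held 365 CPM. At least 2 neutrophil markers were found in 4.30% of the members with 5 or 6 chemokine UMIs, 6.38% of the cells with 3 or 4 and 15.3% of those with 0. At least 2 T or NK markers were found in 1.39% of the members with 1 Tgm2 UMI and 6.60% of the cells without. In all, 1989 cells missed only the chemokine limit, 734 only the limit on Nos2 and Inhba, and 309 only the limit on C1q.

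Few members carried RNA of another class. At least 2 of 5 neutrophil markers were found in 23, 22, 13 and 4 members (7.32, 13.7, 4.73 and 1.79%), at least 2 dendritic cell markers in 25 of 973, T or NK markers in 12 and B cell markers in 3. The 12 genes of the neutrophil list summed to 763, 1132, 608 and 293 CPM, with 9 to 10 of the 12 detected and the defining genes Camp and Ly6g at 0 in every library. The 14 dendritic cell genes summed to 699 to 844 CPM, of which 12 to 14 were detected. The 14 T and NK cell genes summed to 36.4 to 132 CPM, and the 10 B and plasma cell genes to 22.8 to 43.1 CPM with Ighd and Pax5 among those at 0. The 12 tumor, stroma, endothelium and erythroid genes summed to 43.0 to 51.4 CPM with Krt19 and Hba-a1 at 0, and the 6 mast cell and basophil genes to 9.25 to 42.2 CPM with 4 of them at 0. The neutrophil list was thus highest in the STING agonist and lowest in the combination library, and results below are given without the members holding 2 or more markers of another class where that turned a direction. Cells were not removed as doublets, and the methods mention no such step. Scrublet gave 4, 1, 7 and 4 members a doublet score of at least 0.2, a limit set after its automatic threshold had called 255, 55, 0 and 1 cells.

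When all filtered cells with Lyz2 RNA and without Cd3 or Cd79a RNA were placed by their variable genes without the genes of the limits, 37.0% of the 20 nearest neighbors of a member were other members, which made up 10.1% of the cells. C1q-high cells gave 6.32% of the neighbors against 10.9% of the cells, and Nos2 Inhba cells 23.3% against 31.8%. Ly6c2 monocytes gave 15.1% against 10.2%. These 3 sets were picked from the same Lyz2 cells by their own genes and exclude the members. C1q-high cells held at least 10 C1q UMIs, and Nos2 Inhba cells at least 2 UMIs of Nos2 and Inhba with any number of C1q UMIs. Ly6c2 monocytes held a UMI of Ly6c2 and of Vcan or Hp, with few C1q UMIs. Neighbors also came from the same library more often than its share of cells, 46.6, 24.0, 35.0 and 38.5% against 32.0, 16.3, 32.2 and 19.4%.

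The share of the Cxcl9 Cxcl10 Tgm2 cells was between 3.85 and 4.63% in the 4 libraries. They made up 314 of 6783 (4.63%, 4.14 to 5.16), 161 of 3748 (4.30%, 3.67 to 4.99), 275 of 7147 (3.85%, 3.41 to 4.32) and 223 of 5333 filtered cells (4.18%, 3.66 to 4.75). Against the untreated library the ratio of shares for the STING agonist library was 0.928 (0.771 to 1.12), that for the LTbR agonist library 0.831 (0.709 to 0.974) and that for the combination 0.903 (0.764 to 1.07). The interval of the LTbR agonist library lay below 1, and those of the other two included it. The combination share was 0.973 times (0.798 to 1.19) the STING agonist share and 1.09 times (0.914 to 1.29) the LTbR agonist share.

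The other myeloid sets spread further. C1q-high cells made up 6.69, 5.23, 3.26 and 3.13% of the libraries, Nos2 Inhba cells 15.1, 16.2, 13.2 and 9.13%, and Ly6c2 monocytes 4.35, 3.39, 5.25 and 3.38%. Without the limit on C1qa, C1qb and C1qc, an alternative chosen after seeing the data, the member shares were 6.53, 5.84, 4.73 and 5.29%, and the ratios to untreated were 0.724 (0.631 to 0.831) for the LTbR agonist library and 0.810 (0.700 to 0.936) for the combination. Of the Lyz2 cells alone the members were 10.2, 10.3, 8.87 and 11.9%, with ratios to untreated of 0.870 (0.745 to 1.01) for the LTbR agonist library and 1.17 (0.996 to 1.38) for the combination. With Lyz2 cells as the denominator the combination was thus above untreated in place of below it, and the interval of the LTbR agonist library included 1. It also included 1 without the Tgm2 limit, at 0.929 (0.799 to 1.08), and without members that hold 2 or more markers of another class, at 0.858 (0.726 to 1.01).

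**Figure D1:**
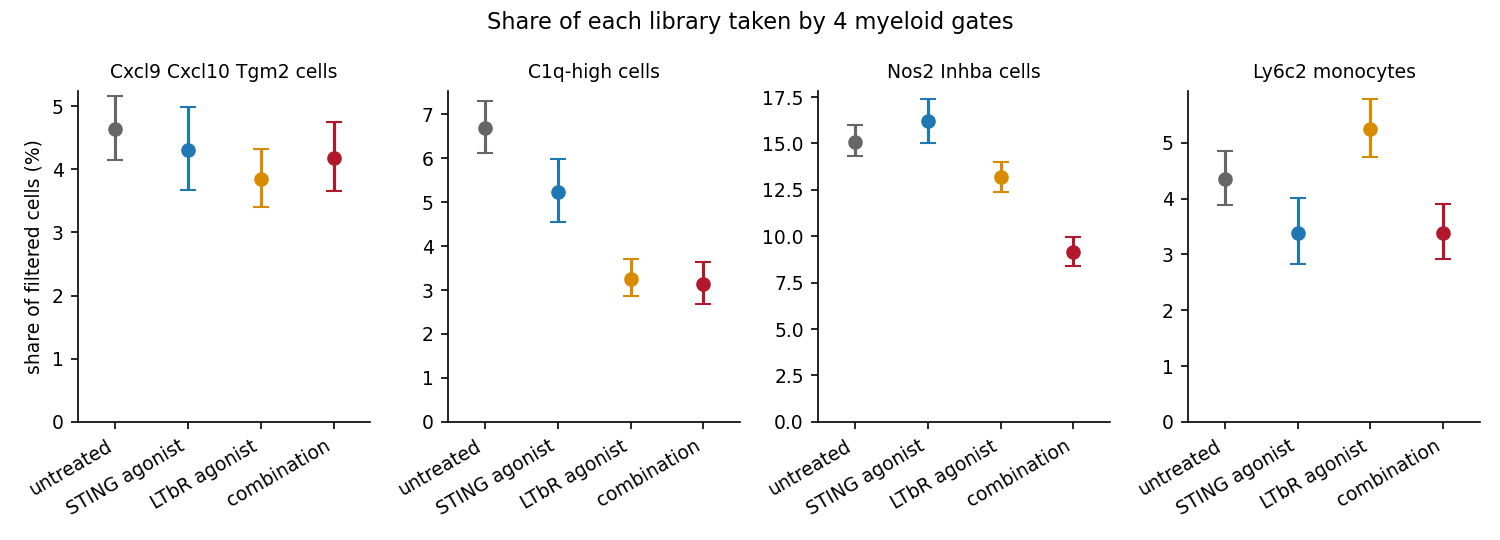
Share of filtered cells (%) taken by Cxcl9 Cxcl10 Tgm2 cells and by 3 other myeloid sets in each of the 4 libraries, with exact 95% intervals for counting error. The member share lies between 3.85 and 4.63% in all libraries, while C1q-high cells go from 6.69% in the untreated to 3.13% in the combination library.

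The chemokines were not made evenly by the members. Cxcl10 was found in 86.0, 80.7, 87.6 and 87.4% of the members, with medians of 14.50, 16, 17 and 17 UMIs per cell and single cells reaching 244, 217, 215 and 250 UMIs. Cxcl9 was found in 49.4, 62.1, 46.5 and 68.6% of them, with medians of 0, 4, 0 and 4 UMIs and single cells reaching 128, 80, 112 and 97. After thinning to 3000 UMIs, Cxcl9 was found in 42.7, 53.9, 36.8 and 59.1% of members and in 2.99, 1.83, 3.08 and 3.09% of T cells. These levels are bound by the limit of 5 UMIs on the pair, but the split between the genes is not set by it.

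Summed over the members, Cxcl9 stood at 792 (761 to 825), 885 (840 to 932), 597 (567 to 628) and 1114 (1071 to 1159) CPM. Cxcl9 was higher in the combination than in the other 3 libraries and lowest with the LTbR agonist. Cxcl10 stood at 3123 (3060 to 3187), 2964 (2881 to 3049), 3509 (3436 to 3583) and 3531 (3454 to 3609) CPM, a narrower range. T cells held 37.5 to 47.9 CPM of Cxcl9 and 105 to 204 CPM of Cxcl10.

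Cxcl9 therefore gave 20.2% (19.5 to 21.0), 23% (22 to 24.1), 14.5% (13.9 to 15.2) and 24.0% (23.2 to 24.8) of the UMIs of the pair. UMI counts of 2 genes are not corrected for unequal capture, so this part is read between libraries and not as an amount of one gene against the other. A single cell gave at most 3.87 to 7.47% of the Cxcl9 UMIs of a library. The share of members with more Cxcl9 than Cxcl10 UMIs followed the same order, with 83 cells (26.4%, 21.6 to 31.7), 50 cells (31.1%, 24.0 to 38.8), 53 cells (19.3%, 14.8 to 24.4) and 71 cells (31.8%, 25.8 to 38.4).

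Over the 4 libraries together, most members had UMIs of 1 chemokine without the other, but in the combination library most had both. Of the 973, 437 held Cxcl10 alone, 137 held Cxcl9 alone, and the rest held both. By library, 159, 61, 147 and 70 members held Cxcl10 alone and 44, 31, 34 and 28 held Cxcl9 alone. A count of 0 UMIs does not show that the RNA was absent. Among cells outside the set with at least 5 chemokine UMIs, Cxcl9 gave 28.4, 39.4, 17.4 and 34.7% of the pair in Nos2 Inhba cells and 48.4, 60.2, 46.7 and 67.4% in C1q-high cells. In the members and both other sets this summed part was lowest with the LTbR agonist. The highest value was in the combination library for members and C1q-high cells and in the STING agonist library for Nos2 Inhba cells. In C1q-high cells the LTbR agonist and untreated intervals overlapped (44.5 to 48.9% and 46.6 to 50.2%). As a mean per cell the untreated library was lowest there, at 54.7% against 56.8% with the LTbR agonist.

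**Figure D2:**
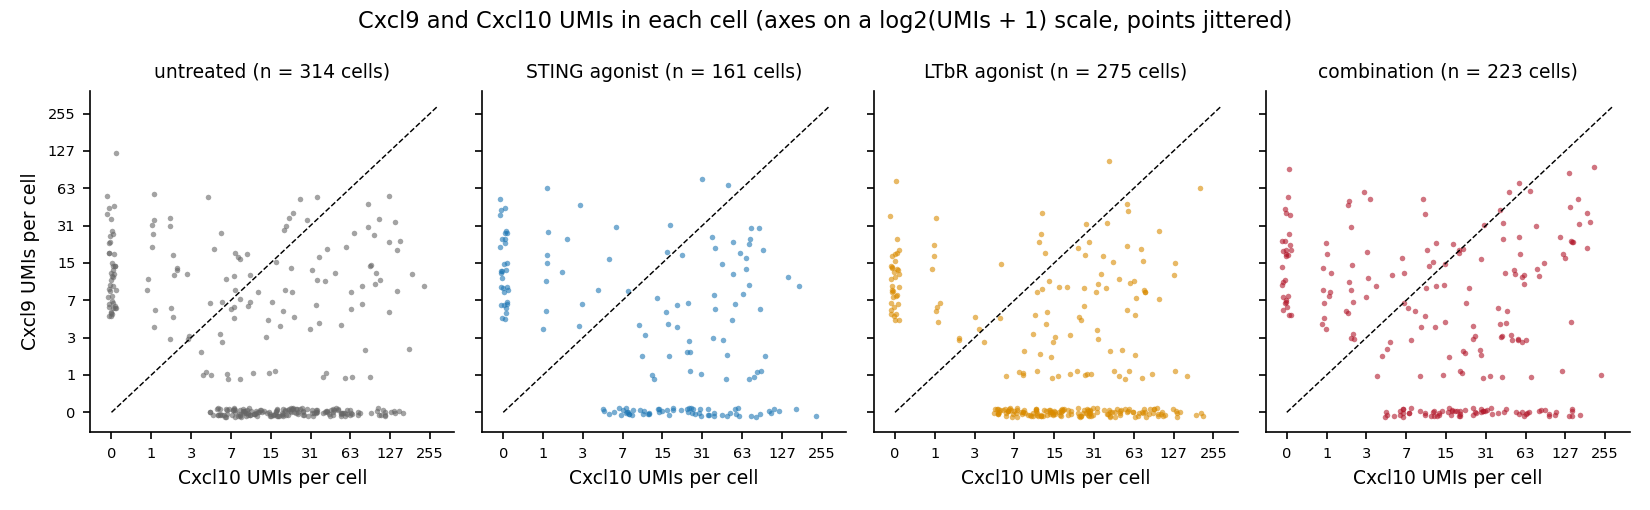
Cxcl9 UMIs against Cxcl10 UMIs of every Cxcl9 Cxcl10 Tgm2 cell, on axes of log2(UMIs + 1), 1 panel per library and 1 point per cell with a small jitter. The dashed line marks equal counts: 83, 50, 53 and 71 cells lie above it, and dense rows at 0 Cxcl9 and columns at 0 Cxcl10 show the 437 cells with Cxcl10 alone and the 137 with Cxcl9 alone.

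Members with more Cxcl9 also differed from those with more Cxcl10 in other genes. This split was chosen after seeing the data and uses the same readout as the limits, so it is a description. Of 3018 genes measured in both kinds of cell, 0.298% were at least 2-fold higher with Cxcl9 in all 4 libraries and 0.795% at least 2-fold lower, and those called included 3 of 13 genes of class II antigen presentation on the higher side and 6 of 28 type I interferon-stimulated genes on the lower side. H2-Aa, which encodes a chain of the class II molecule that shows peptides to CD4 T cells, stood at 5105, 5713, 6342 and 5762 CPM in Cxcl9-over members and at 2236, 1885, 2059 and 1589 CPM in Cxcl10-over members. H2-Eb1 differed in the same direction by log2 ratios of 1.34, 1.67, 1.80 and 1.99, and H2-Ab1 by 1.14, 1.41, 1.71 and 1.73. Log2 ratios here and below are taken after adding 10 CPM to both values, which understates the change of low genes.

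The class II list had median log2 ratios of 0.50, 0.74, 0.94 and 0.78, with 9 of 13 genes higher with Cxcl9 in every library, against 598 of all 3018 genes. The medians over all measured genes were -0.00, -0.04, -0.01 and -0.02. Rgs1, a regulator of G protein signaling, was also higher in the Cxcl9-over cells of all 4 libraries, at 413, 434, 369 and 291 CPM against 112, 143, 139 and 55.6 CPM. Cst3, a secreted inhibitor of cathepsins that dendritic cells express highly, stood at 6625, 3487, 4861 and 7882 CPM against 1412, 1329, 2209 and 1543 CPM. Klrb1b, Ccnd2, Il1r2, Plaat3 and Klrk1 completed the 10 genes with the most even difference on this side.

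On the Cxcl10 side stood genes of the antiviral response. Rsad2, which encodes the antiviral enzyme viperin, was at 170, 98.7, 89.0 and 135 CPM in Cxcl9-over members and at 891, 670, 667 and 436 CPM in Cxcl10-over members. Cmpk2, its neighbor in the genome and a mitochondrial nucleotide kinase, differed by log2 ratios of -2.82, -3.09, -3.40 and -1.37. Il15, a cytokine that sustains natural killer cells and memory CD8 T cells, differed by -1.87, -1.39, -1.90 and -1.81. Of 28 type I interferon-stimulated genes, 26 were lower in Cxcl9-over members in every library, against 758 of all 3018 genes. The medians of the 28 genes were -0.42, -0.60, -0.94 and -0.62. Of 14 interferon-γ-induced GTPases, 7 were lower in every library and 0 were higher in every library, with medians of -0.45, -0.26, -0.29 and -0.31. None of these GTPases passed 2-fold either way in all 4. Plcb1, Trim30c, Ccl2, Ifit3 and Cd69 were lower as well.

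G0s2 and S100a8, genes that neutrophils express highly, also ranked among the lower genes, and in Cxcl9-over members G0s2 was listed at 0 in the STING agonist and combination libraries and S100a8 in the combination library. Without members that held 2 or more markers of another class the direction turned, to log2 ratios of 0.70 in the untreated and 0.79 in the LTbR agonist library for G0s2 and of 1.06 in the untreated library for S100a8. Without those members the other 8 lower and all 10 higher genes kept their direction in the 4 libraries, and the genes past 2-fold numbered 2 higher and 18 lower of 2616 instead of 9 and 24. At least 2 dendritic cell markers were found in 4.82, 6.00, 9.43 and 5.63% of Cxcl9-over members and in 1.31, 0.909, 0.905 and 0.671% of Cxcl10-over members.

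Class II RNA was spread over a wide range within the set. The UMIs of H2-Aa, H2-Ab1 and H2-Eb1 were absent from 74, 47, 81 and 61 members (23.6, 29.2, 29.5 and 27.4%), the median member held 1354, 1383, 799 and 1281 CPM of the 3 genes, and 34.4, 39.1, 34.2 and 36.3% held at least 5000 CPM. Of T cells, 7.15, 3.12, 7.12 and 4.93% reached 5000 CPM. The summed class II level of the set was close in the 4 libraries, with H2-Aa at 3073, 3275, 3046 and 3111 CPM and H2-Ab1 at 3214, 3275, 3024 and 3217 CPM.

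The share of members with more Cxcl9 than Cxcl10 went up with the class II level of the cell. Over the 4 libraries it was 65 of 477 members (13.6%, 10.7 to 17.0) below 1000 CPM, 44 of 150 (29.3%, 22.2 to 37.3) from 1000 to 5000 CPM and 148 of 346 (42.8%, 37.5 to 48.2) at or above 5000 CPM. The median depth in these bins was 8518, 8948 and 9861.5 UMIs. Each library gave a higher share in the top than in the bottom bin, from 17.4 to 37.0%, from 19.0 to 49.2%, from 5.63 to 36.2% and from 15 to 53.1%. In the top bin the order was that of the whole set, with the STING agonist and combination libraries at 49.2 and 53.1% and the other libraries at 37.0 and 36.2%. The intervals of the libraries overlapped there, and the lower bins had other orders. From 1000 to 5000 CPM the shares were 29.8, 21.1, 28.2 and 34.3%, with the STING agonist lowest. Below 1000 CPM the combination lay below untreated.

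**Figure D3:**
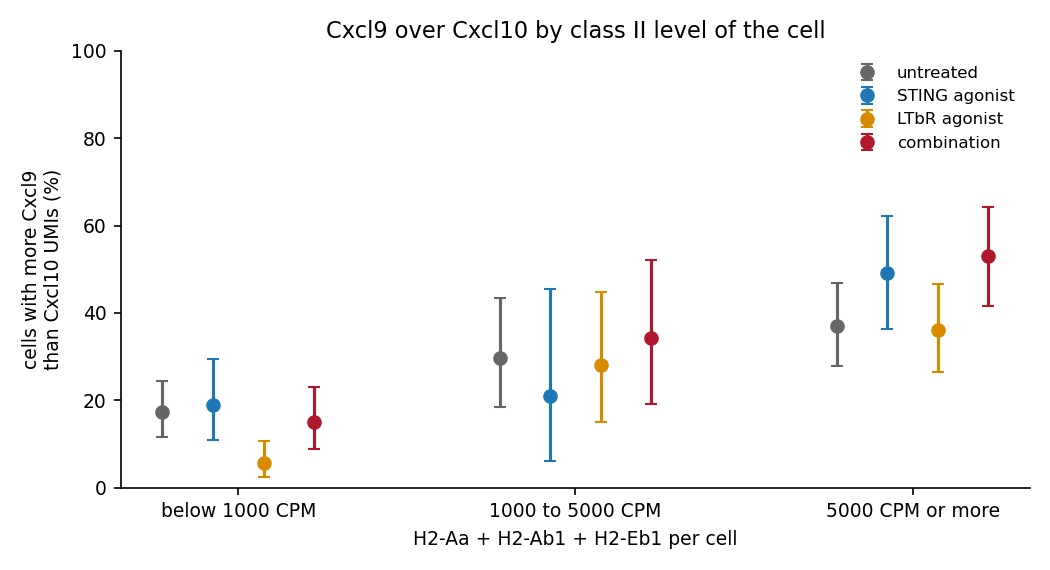
Share of Cxcl9 Cxcl10 Tgm2 cells with more Cxcl9 than Cxcl10 UMIs (%), by the summed level of H2-Aa, H2-Ab1 and H2-Eb1 in the cell and by library, with exact 95% intervals. In every library the share is higher at 5000 CPM or more (36.2 to 53.1%) than below 1000 CPM (5.63 to 19.0%). These genes are among those named as higher in Cxcl9-over members, so the bins restate that difference.

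Between treatments, few genes of the members differed by as much as 2-fold. A gene counted as measured with at least 50 UMIs in 1 of the 2 libraries compared. With the STING agonist 0.177% of 5649 genes were at least 2-fold higher than untreated and 0.142% lower. With the LTbR agonist the shares were 0.190% and 0.225% of 5782 genes, and with the combination 0.557% and 0.643% of 5750 genes. These 3 comparisons share the untreated library. In bulk sums of this kind, a change in which cells met the limits and a change of RNA per cell cannot be told apart.

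Most interferon-γ-induced GTPases were higher in the STING agonist library and lower in the LTbR agonist library than untreated, and 1 of them passed 2-fold. Of 15 measured genes, 14 had a log2 ratio above 0 with the STING agonist, with a median of 0.26 and a range of -0.26 to 0.56, and 3 of 15 with the LTbR agonist, with a median of -0.13. The medians over all genes were 0.01 and 0.02, with 2983 of 5649 and 3144 of 5782 genes above 0. Gbp2 had log2 ratios of 0.48 (0.38 to 0.59), -0.63 (-0.75 to -0.52) and -0.18 (-0.29 to -0.07) with the STING agonist, the LTbR agonist and the combination. The median member held 7, 11, 4 and 7 UMIs of it.

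Among the other guanylate-binding proteins, Gbp5 stood at 382, 493, 293 and 372 CPM, Gbp3 at 268, 298, 166 and 201 CPM, and Gbp7 at 250, 279, 161 and 204 CPM. Gbp4 alone of the list passed 2-fold, at 125, 145, 56.2 and 92.5 CPM with a log2 ratio of -1.02 (-1.37 to -0.68) with the LTbR agonist. Of the immunity-related GTPases, Irgm1, Irgm2 and Iigp1 were not lowest with the LTbR agonist, whereas Igtp and Ifi47 were. Irgm2, whose promoter is shown above, stood at 83.3, 109, 90.4 and 92.9 CPM, Irgm1 at 208, 311, 217 and 225 CPM, Igtp at 207, 236, 190 and 230 CPM, and Ifi47 at 396, 494, 361 and 444 CPM. Iigp1 was highest in the combination, at 104, 126, 112 and 189 CPM. Against the LTbR agonist alone, the combination was higher for 15 of 15 GTPases, with a median log2 ratio of 0.33. In that comparison 2778 of all 5499 genes were higher, with a median of 0.00. Summed over the 17 genes of the list present in the files, the members held 3446, 4425, 2616 and 3408 CPM, and C1q-high cells held 1957, 2533, 1246 and 1723 CPM in the same order of libraries.

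Several regulators downstream of the interferon-γ receptor were likewise lowest with the LTbR agonist. Irf1, an interferon-induced transcription factor, stood at 412, 646, 339 and 536 CPM. Socs1, the feedback inhibitor of Jak kinases, stood at 235, 373, 175 and 316 CPM. Cd274, the gene of the checkpoint ligand PD-L1, stood at 496, 600, 441 and 508 CPM. None of these 3 genes passed 2-fold. Of 12 measured genes of this list, 10 were above a log2 ratio of 0 with the STING agonist (median 0.19), 3 with the LTbR agonist (median -0.22) and 9 with the combination (median 0.22). Over all genes, 2983 of 5649, 3144 of 5782 and 3224 of 5750 were above 0 in these comparisons, with medians of 0.01, 0.02 and 0.04.

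Serpina3g and Upp1 of the same list passed 2-fold, both in the combination. Serpina3g, an interferon-induced inhibitor of cathepsin proteases, stood at 31.2, 37.0, 92.4 and 157 CPM, with a UMI in 13.7, 14.9, 32.7 and 46.6% of members. Its log2 ratio was 1.31 (0.91 to 1.71) with the LTbR agonist and 2.02 (1.65 to 2.39) with the combination. No single member gave over 13.3% of its UMIs in any library, and T cells, which express the gene themselves, held 120, 122, 121 and 135 CPM. In C1q-high cells, Nos2 Inhba cells and Ly6c2 monocytes the combination log2 ratios were 1.10, 1.13 and 1.49. Upp1, uridine phosphorylase, stood at 76.2, 138, 139 and 202 CPM, with a log2 ratio of 1.30 (1.00 to 1.60) in the combination.

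Type I interferon-stimulated genes were level or slightly lower in all treated libraries. Their median log2 ratios were -0.14, -0.08 and -0.17 with the STING agonist, the LTbR agonist and the combination, and 4, 10 and 6 of 29 to 30 measured genes lay above 0. Among all genes, 2983 of 5649, 3144 of 5782 and 3224 of 5750 lay above 0. Isg15, a ubiquitin-like modifier, stood at 2122, 1768, 1854 and 1653 CPM. Rsad2 was the 1 gene of the list past 2-fold, at 685, 466, 537 and 325 CPM, with a log2 ratio of -1.05 (-1.22 to -0.89) in the combination. Cmpk2 stood at 108, 110, 120 and 54.7 CPM.

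Receptors and sensors for the 2 drugs and for interferons were detected in the members. Ltbr, the receptor bound by the antibody, stood at 84.3, 82.7, 65.7 and 76.0 CPM in 40.4 to 50.3% of members, against 5.38 to 10.0 CPM in T cells. Tmem173, the gene name the files use for STING, stood at 132, 162, 114 and 140 CPM, against 44.1 to 60.9 CPM in T cells. Ifngr1 stood at 283, 279, 293 and 325 CPM and Ifnar1 at 114, 118, 116 and 113 CPM. None of the 16 measured genes of the STING and interferon receptor pathway and none of the 22 to 23 of the LTbR and NF-κB pathway passed 2-fold in any treated library. Ifng itself was found in 1.27, 0, 1.09 and 0.448% of members, where 0 of 161 limits the share of cells with a UMI to 1.86% and not the share that express the gene, and in 39.4, 36.9, 27.0 and 29.1% of T cells.

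Stress and early response genes were higher with the STING agonist. Of 21 measured immediate-early and heat shock genes, 4 passed 2-fold with the STING agonist, none was 2-fold lower, and the median log2 ratio was 0.42, against 0.177% of all genes 2-fold higher and a median of 0.01. The summed level of the list was 9364 CPM in untreated and 12189 CPM in STING agonist members. It was also higher with the STING agonist in the other cells, at 5375 and 7410 CPM in T cells, 8455 and 9495 CPM in C1q-high cells, 9176 and 10260 CPM in Nos2 Inhba cells and 10277 and 11682 CPM in Ly6c2 monocytes. Klf2, a transcription factor that holds back inflammatory genes in monocytes, stood at 64.2, 167, 106 and 314 CPM, with a UMI in 20.7, 34.8, 24.4 and 43.5% of members and log2 ratios of 1.26 (0.91 to 1.60) with the STING agonist and 2.13 (1.84 to 2.41) with the combination. T cells held 149, 278, 156 and 207 CPM of Klf2. Egr1 stood at 45.7, 120, 62.5 and 49.3 CPM. The heat shock gene Hspa1a stood at 34.3, 94.4, 97.6 and 117 CPM, and in the untreated library 1 cell gave 44.1% of its UMIs. Hspa1b stood at 22.8, 63.5, 127 and 92.9 CPM, and 1 untreated cell gave 77.9% of its UMIs.

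Spp1, osteopontin, headed the genes that were higher with the STING agonist, at 34.3, 145, 54.6 and 18.7 CPM. It was found in only 9.55, 9.94, 13.8 and 7.17% of members, 1 cell gave 30.6% of the UMIs in the STING agonist library, and T cells held more of it, at 180, 294, 222 and 160 CPM. Csf1, the macrophage growth factor, stood at 16.8, 54.9, 22.3 and 11.1 CPM. Sgms1, sphingomyelin synthase, stood at 25.9, 77.7, 57.4 and 59.1 CPM. Ccl3 and Tnf also passed 2-fold, at 55.1, 125, 76.5 and 29.8 CPM and at 14.8, 40.7, 11.2 and 11.6 CPM, with 1 cell giving 20.2% and 39.4% of their UMIs in the STING agonist library. On the lower side were Mgl2, Klrd1, Dcstamp, Sdc1, Dmkn and Hic1, of which Dmkn and Hic1 did not reach 2-fold, with log2 ratios of -0.90 and -0.88. Klrd1, a receptor chain of NK cells, stood at 58.8, 12.3, 35.5 and 39.6 CPM, against 395 to 715 CPM in T cells.

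With the LTbR agonist, 2 genes with high levels in mature macrophages were lower, alone and in the combination. Of 25 measured macrophage genes, these 2 were 2-fold lower with the LTbR agonist alone, against 0.225% of all genes. Slc7a2 was 2-fold higher, at 19.8, 30.2, 51.4 and 44.9 CPM. Of the 25 genes, 8 lay above a log2 ratio of 0, and the median was -0.19 against 0.02 over all genes. Apoe, apolipoprotein E, stood at 820, 978, 370 and 310 CPM, with a UMI in 72.3, 74.5, 49.5 and 47.5% of members. Its log2 ratio was -1.13 (-1.28 to -0.98) with the LTbR agonist and -1.37 (-1.54 to -1.21) with the combination. Cd63, a tetraspanin of lysosomes, stood at 82.0, 67.9, 27.9 and 20.5 CPM, with log2 ratios of -1.28 and -1.59. Apoe was lower in the other myeloid sets too, by log2 ratios of -1.09, -1.20 and -1.43 with the LTbR agonist in C1q-high cells, Nos2 Inhba cells and Ly6c2 monocytes. T cells, which should lack the gene, held 297, 127, 217 and 151 CPM of Apoe.

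Ccl5, a chemokine for T cells and monocytes, stood at 1158, 852, 388 and 625 CPM in the members and headed the named genes that were lower with the LTbR agonist, with a log2 ratio of -1.56 (-1.69 to -1.42). It was lower in the other myeloid sets as well, by -2.42, -2.02 and -2.75. T cells are a main source of Ccl5 RNA, held 4944, 3223, 3229 and 3012 CPM, and their part in the level of the members was not tested. Id3, an inhibitor of basic helix-loop-helix factors, stood at 79.6 CPM in the untreated, 21.9 CPM in the LTbR agonist and 40.5 CPM in the combination library, and its log2 ratio of -1.49 with the LTbR agonist stood beside -0.19 to 0.08 in the other 3 sets. The histone genes Hist1h1e and Hist1h1b were lower by -1.09 and -1.06. On the higher side, Gm17276 stood at 6.72, 10.5, 31.9 and 20.9 CPM.

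The combination gave more genes past 2-fold than either agonist alone, 69 against 18 and 24. Thbs1, thrombospondin 1, stood at 1322, 1234, 749 and 368 CPM, with a UMI in 65.0, 60.2, 51.3 and 41.7% of members and a log2 ratio of -1.82 (-1.96 to -1.68) in the combination. Slpi, a secreted inhibitor of neutrophil elastase, stood at 391, 339, 251 and 86.7 CPM, with a log2 ratio of -2.05 (-2.32 to -1.79). Ddit4, an inhibitor of mTORC1 induced by stress and low oxygen, stood at 215, 126, 102 and 56.9 CPM. Arhgap24 stood at 167, 120, 100 and 41.8 CPM. For these 4 genes both single agonist libraries lay between untreated and combination.

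Thbs1, Slpi, Arhgap24 and Ddit4 were also lower in the combination in the other myeloid sets, by log2 ratios of -1.04 to -1.22 for Thbs1, -1.24 to -1.95 for Slpi, -1.27 to -1.70 for Arhgap24 and -1.22 to -2.97 for Ddit4. Arg1, the arginase that marks suppressive macrophages, stood at 390, 447, 370 and 164 CPM, with a UMI in 38.2, 26.7, 29.8 and 19.3% of members. Ier3 stood at 484, 550, 333 and 183 CPM, with a log2 ratio of -1.36. Of 25 measured macrophage genes, 4 were 2-fold lower in the combination (Apoe, Cd63, Ms4a7 and Arg1), none was 2-fold higher, and the median was -0.41 against 0.04 over all genes. S100a8 stood at 250, 365, 193 and 74.2 CPM and was found in only 3.14 to 10.6% of members. Its log2 ratio of -1.63 became 0.93 without the members that held 2 or more markers of another class.

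Of the monocyte genes, 2 of 28 were 2-fold higher and 2 lower in the combination, against 0.557% and 0.643% of all genes. Chil3, a chitinase-like protein of monocytes, stood at 201, 252, 380 and 463 CPM with a log2 ratio of 1.17 (0.97 to 1.36), although 1 cell gave 36.8% of its UMIs in the combination. Spn, which encodes CD43, stood at 12.4, 13.6, 18.3 and 39.1 CPM, against 141 to 154 CPM in T cells. Clec4e, the receptor Mincle, stood at 199, 283, 146 and 93.8 CPM. Ly6c2 stood at 1450, 1253, 1143 and 1874 CPM and Ccr2 at 710, 569, 539 and 402 CPM, both within 2-fold of untreated.

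**Figure D4:**
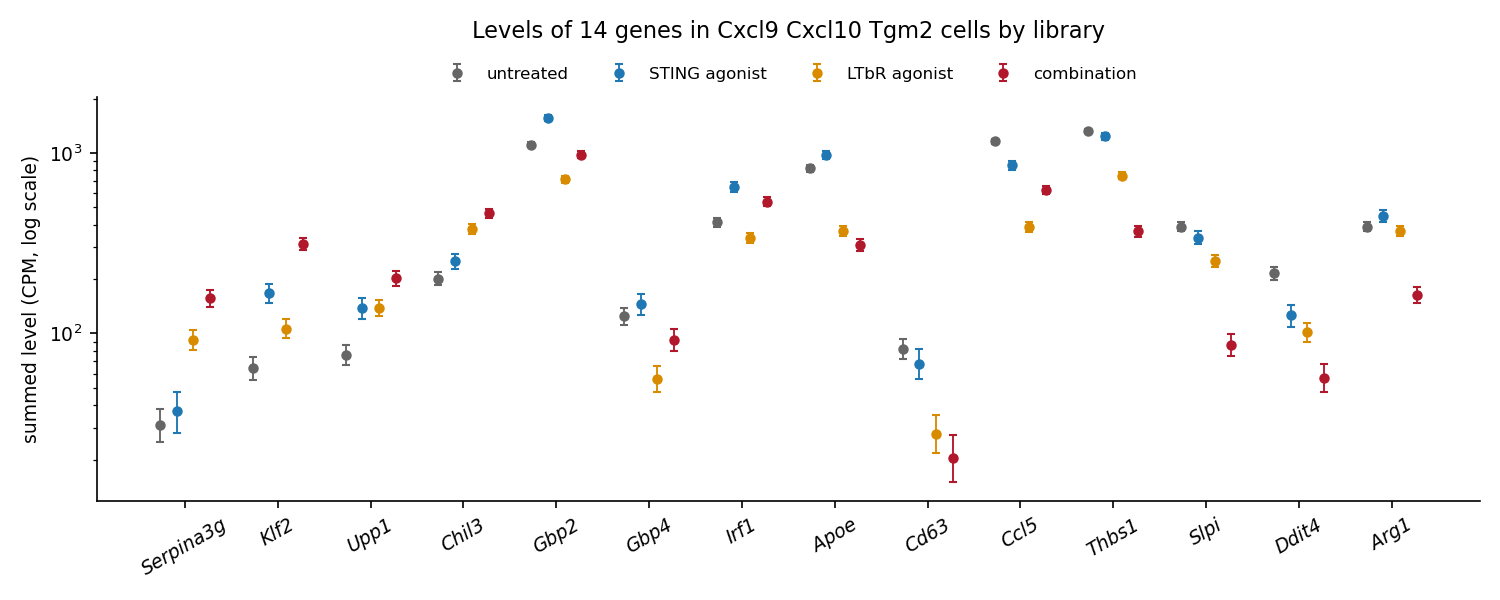
Summed levels (CPM, log scale) of 14 genes in the Cxcl9 Cxcl10 Tgm2 cells of the 4 libraries, with exact 95% intervals for counting error. Serpina3g goes from 31.2 to 157 CPM between untreated and combination and Thbs1 from 1322 to 368 CPM, while Gbp2 is highest with the STING agonist (1560 CPM) and lowest with the LTbR agonist (714 CPM).

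Genes of antigen presentation differed little between libraries. The class I list had median log2 ratios of 0.08, -0.18 and 0.04 and the class II list 0.02, -0.10 and 0.02 with the STING agonist, the LTbR agonist and the combination, and the 1 gene of either list past 2-fold was H2-Oa, at 48.4, 22.8, 19.1 and 24.0 CPM. Cd80, a costimulatory ligand, stood at 122, 126, 196 and 211 CPM, and Cd86 at 684, 690, 660 and 694 CPM. Il1b stood at 5399, 5497, 4276 and 4269 CPM. Tnfsf9, the ligand 4-1BBL, stood at 44.3, 38.9, 29.9 and 11.6 CPM, a log2 ratio of -1.33 in the combination. Il12b was found in at most 0.621% of the members of a library and Ido1 in 1 member in all.

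Several genes that were higher in the combination were found in few members. Ccl17, Mgl2, Plet1 and Dcstamp are genes of conventional and monocyte-derived dendritic cells, and the cells with at least 2 of these 4 genes were looked at after their values had been seen. They numbered 6 of 314 (1.91%, 0.704 to 4.11), 0 of 161 (which allows a share of up to 1.86% of cells with such UMIs, by a limit of 3 counts), 11 of 275 (4.00%, 2.01 to 7.04) and 15 of 223 (6.73%, 3.81 to 10.9). The untreated and combination intervals overlapped.

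Ccl17 stood at 0.672, 0.617, 45.4 and 88.0 CPM, from 2, 1, 114 and 198 UMIs, with 1 cell giving 80.7% of its UMIs in the LTbR agonist and 50.5% in the combination library. Its log2 ratio in the combination was 3.20 (2.79 to 3.46). Dcstamp, which encodes a membrane protein of dendritic cells and fusing osteoclasts, stood at 19.1, 0.617, 62.1 and 109 CPM, from 1 UMI with the STING agonist (log2 ratio -1.46, -1.80 to -0.87), Mgl2 at 41.6, 4.93, 60.2 and 125 CPM, and Plet1 at 21.2, 10.5, 65.3 and 116 CPM. With the LTbR agonist the log2 ratio of Plet1, 1.27, became -0.23 without members that held 2 or more markers of another class. Mmp12, macrophage elastase, stood at 16.5, 41.9, 56.6 and 109 CPM, and Ccl24, an eosinophil chemokine, at 14.8, 0.617, 74.1 and 41.8 CPM, with 1 cell giving 48.9% of its UMIs in the LTbR agonist library.

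The 32 cells of this group differed from the other members in genes that had not chosen them. They held 10318 CPM of H2-Aa against 2668 CPM in the other members, 19942 against 1928 CPM of Cst3, and 163 against 3.06 CPM of Itgae, the integrin CD103. Ly6c2 stood at 154 against 1514 CPM, F13a1 at 7.41 against 371 CPM and Rsad2 at 53.7 against 549 CPM. Cxcl9 was alike at 822 and 834 CPM, whereas Cxcl10 stood at 428 against 3473 CPM, and 24 of the 32 held more Cxcl9 than Cxcl10. The dendritic cell genes Flt3 and Zbtb46 stood at 27.8 against 6.01 CPM and at 25.9 against 6.58 CPM, and 5 of the 32 held at least 2 dendritic cell markers. None had a doublet score of 0.2 or more. Without these 32 cells, every one of the 10 genes named on each side of the Cxcl9 split kept its direction in the 4 libraries, and 3 and 16 of 3007 genes passed 2-fold in place of 9 and 24.

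The last comparison sets the members beside the other myeloid sets of the same library. The sets were picked by chemokine, C1q, Nos2, Inhba, Ly6c2, Vcan and Hp RNA of these same cells. The comparison is therefore a description and not evidence that the sets are separate types. Cxcl9 and Cxcl10 are themselves induced by interferons. How far the limit on them sets the differences in other interferon-induced RNA below was not tested. Against C1q-high cells, 1.89% of 5067 genes were at least 2-fold higher in members in all 4 libraries and 0.947% at least 2-fold lower. Against Nos2 Inhba cells, 0.317% of 7265 genes were higher and 0.757% lower. Against Ly6c2 monocytes, 0.712% of 4352 genes were higher and 0.138% lower.

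Against C1q-high cells the members held more monocyte and antiviral RNA and less of mature macrophages. Hp, haptoglobin, stood at 236, 270, 218 and 138 CPM against 5.65 to 44 CPM in C1q-high cells and 423 to 563 CPM in Ly6c2 monocytes. Hp was among the genes that picked the Ly6c2 monocytes, so its level there is partly set by the choice. On the other side, Apoe stood at 3631, 4519, 1695 and 1735 CPM in C1q-high cells, and Mertk, a receptor for dying cells, at 82.4 to 114 CPM against 4.00 to 17.9 CPM in members. Of 29 type I interferon-stimulated genes, 17 were at least 2-fold higher in members in every library, with medians of 1.19, 1.11, 1.31 and 1.50. Of 28 macrophage genes, 9 were at least 2-fold lower. S100a8, S100a9 and G0s2 were also higher, with the neutrophil list as given above, while Itga9, Rgs1, Cd72, Mmp13 and Ms4a7 were lower.

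Against Ly6c2 monocytes the members held more interferon-induced RNA, the kind that their chemokine limit also picks. Of 15 GTPases, 7 were at least 2-fold higher in the members in all 4 libraries, with medians of 1.13, 1.09, 1.24 and 1.41, as were 8 of 29 type I interferon-stimulated genes and 5 of 14 class II genes. Gbp5 led the GTPases, at 382, 493, 293 and 372 CPM in members, with log2 ratios of 1.88, 1.90, 2.08 and 1.57. Ifit2, an antiviral RNA-binding protein, had log2 ratios of 1.86, 2.45, 2.61 and 2.02. Serpina3g had 1.36, 1.78, 1.92 and 1.89. Cx3cr1, the receptor of patrolling monocytes, was lower, with log2 ratios of -1.37, -0.99, -1.63 and -1.77, beside Stxbp6, Add3, Ccdc88c and Grk5.

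Against Nos2 Inhba cells the members held less RNA of several macrophage genes. Unlike the members, the Nos2 Inhba cells had no limit on C1q UMIs. How far this sets the difference in macrophage genes was not tested. None of 15 GTPases and none of 30 type I interferon-stimulated genes passed 2-fold in all 4 libraries, while 8 of 30 macrophage genes, 3 of 13 chemokines and 3 of 22 glycolysis and hypoxia genes were lower in members. Arg1 had log2 ratios of -2.56, -2.48, -2.76 and -3.31. Hilpda, a lipid droplet protein induced by low oxygen, had -1.93, -2.08, -2.17 and -2.06, and Il1a, an alarm cytokine, -2.01, -2.17, -1.91 and -2.02. Higher in members were Foxp1, Ifitm6, Ace and Tmem176a, with the lowest log2 ratio of any library between 1.27 and 1.43.

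**Figure D5:**
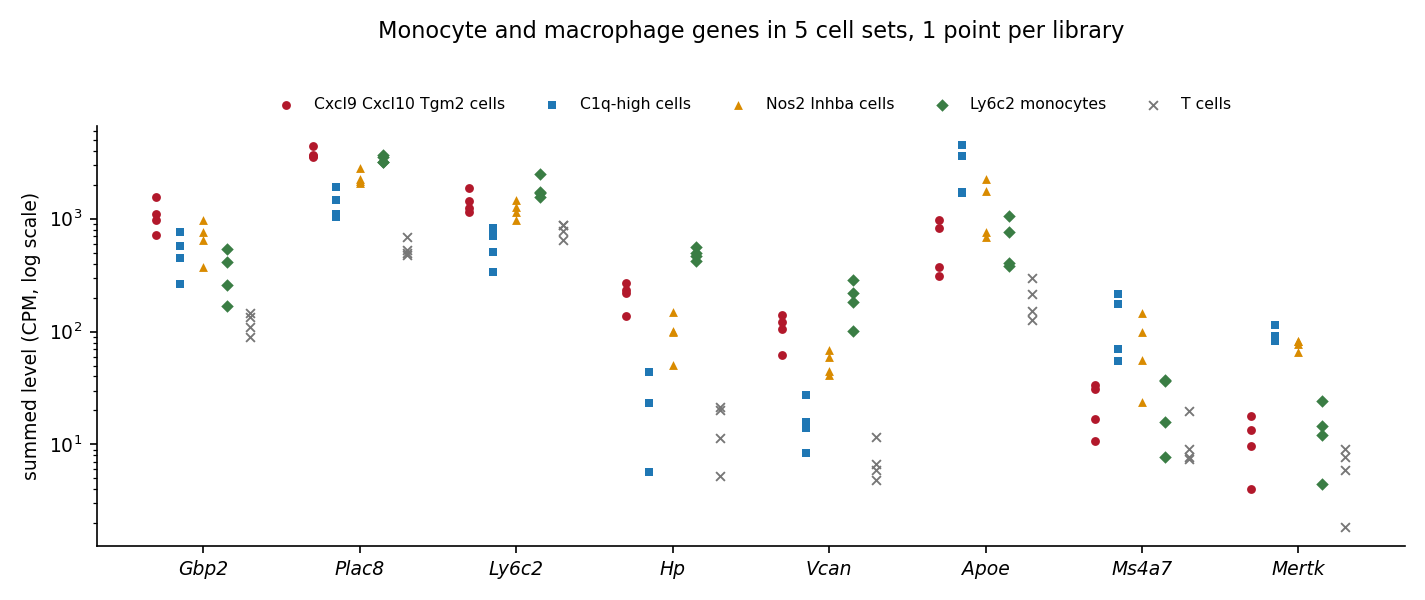
Summed levels (CPM, log scale) of 8 marker genes in Cxcl9 Cxcl10 Tgm2 cells, 3 other myeloid sets and T cells, 1 point per library. The members sit between C1q-high cells and Ly6c2 monocytes for Hp (138 to 270 CPM), below C1q-high cells for Apoe (310 to 978 CPM against 1695 to 4519 CPM), and above all other sets for Gbp2 in the same library. Ly6c2, Vcan and Hp picked the Ly6c2 monocytes, so the levels of these genes in that set are partly set by the choice.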

How the data were processed

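Live Cd45-positive tumor leukocytes of 4 groups were profiled with a 10x 5′ kit, 1 library each. The authors aligned and counted the reads with Cell Ranger 7.1.0 on mm10 (the assembly of GRCm38), and the deposited matrix holds raw UMI counts of 32285 genes per barcode, without normalization. Whether reads were equalized between libraries is not stated. Libraries were told apart by the barcode suffix that the labels give, and 0 sample columns were left unused.

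Cells with 300 to 5000 genes and at most 6% mitochondrial UMIs were kept. UMIs were summed over the members of a library and scaled to CPM, with exact Poisson intervals. Log2 ratios were taken after adding 10 CPM, with intervals from opposite bounds, for genes with at least 50 UMIs in 1 of the libraries compared. A ratio counted as past 2-fold at an absolute log2 of 1 or more. Shares have Clopper-Pearson intervals, and their ratios log-scale 95% intervals. Scripts were tested on simulated data. Thinning drew 3000 UMIs per cell. Neighbors came from 2000 variable genes, 30 components and 20 neighbors.

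The members and the 22 gene lists (441 genes) were chosen with earlier results of these data known. Named genes were, per treatment, the 6 highest and 6 lowest ratios with UMIs in at least 10 members, leaving out genes of the limits, immunoglobulin, T cell receptor, mitochondrial and sex-linked marker genes. For each comparison of cell sets they were the 10 genes whose least favorable library was most different in each direction. Per list they were 2 to 4 genes by size, level or role. A few genes that these rules name are not reported here.

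Python 3.11.15, numpy 2.4.6, scipy 1.17.1, pandas 2.3.3, scanpy 1.11.5, scikit-learn 1.9.0 and matplotlib 3.10.9 were used.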

Additional observations from a re-analysis of the deposited data

How the results depend on the processing

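No paired analysis was possible because each group has 1 sample. The member share of the combination against untreated was 1.17 times with Lyz2 cells as the denominator in place of 0.903. Genes past 2-fold with the STING agonist numbered 37 after adding 1 CPM, 1 after adding 50 CPM, 30 with the mean of CPM per cell and 7 after thinning, in place of 18. With the LTbR agonist they numbered 50 and 3 after adding 1 and 50 CPM, in place of 24. In the combination they numbered 130, 20 and, after thinning, 45, in place of 69. The cause was not tested beyond the larger or smaller added value and the fewer genes measured after thinning. The percentage of these genes that were higher with the STING agonist was 55.6, and 76.7 with the mean per cell, 70.0 without members of 2 or more markers of another class and 72.2 without the Ccl17, Mgl2, Plet1 and Dcstamp cells. With the LTbR agonist it was 45.8, and 60.0 without members of 2 or more markers of another class. As a mean over cells the Cxcl9 part was 28.1, 33.7, 22.4 and 34.6% in the 4 libraries. Without the Tgm2 limit the summed Cxcl9 part was 22.4% in the combination, in place of 24.0%. Genes 2-fold higher in Cxcl9-over members numbered 2 without members of another class and 3 without the Ccl17, Mgl2, Plet1 and Dcstamp cells, in place of 9, and both alternatives were chosen after seeing the data.

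Of 276 values of the 30 named genes under alternatives to a ratio past 2-fold, 274 kept their direction and 238 stayed past 2-fold. The exceptions in direction were Plet1 with the LTbR agonist (-0.23) and S100a8 in the combination (0.93), both without members of 2 or more markers of another class. Depth limits genes under about 50 UMIs in the members of a library, and a single library per group leaves the spread between mice unmeasured.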
